A study of Bos taurus
Mus musculus with 10 samples.

Results

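The collagen genes of both species were followed in wells where bovine embryonic stem cells grew on feeder fibroblasts from mouse fetuses. Bovine members were all genes whose symbol reads COL, a number, A and a number, and mouse members were 18 collagen genes taken by their gene identifiers. This gave 44 bovine and 18 mouse genes, 62 of the 58939 gene rows of both tables. Of the bovine members, 39 reached a normalised read count of at least 10 in at least 5 libraries and were tested, as were all 18 mouse members. The 5 bovine members below that level were COL6A5, COL17A1, COL19A1, COL20A1 and COL28A1.

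Collagens are trimers of chains that wind into a triple helix, and the chain composition sets which structure is built. Types I, II, III, V and XI form fibrils, type IV forms the network of basement membranes, type VI forms beaded filaments, and types IX, XII and XIV sit on fibril surfaces. Fibroblasts are a main source of types I, III, V and VI, while epithelial cells typically make type IV. Types XV and XVIII, the multiplexins, lie at basement membranes, and type XVIII is the precursor of endostatin.

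The 5 wild-type bovine stem cell lines, numbered 1, 2, 4, 8 and 11, came from blastocysts of day 7.5. They grew in mTeSR1 medium with 2.5 µM IWR-1 on fibroblasts of E13.5 CD-1 mouse fetuses, which mitomycin C had kept from dividing. IWR-1 inhibits tankyrases, which protects AXIN from degradation and holds down Wnt/beta-catenin signalling. Every line was split over 2 wells, and for 1 day the medium of a well either still contained IWR-1 or lacked it. All 10 wells shared the kind of feeders, the basal medium and the earlier growth in IWR-1. A line was 1 culture split over the media, so p-values rest on the spread of the change between 5 lines, which also holds differences between wells.

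Whole wells were sequenced, with 48064953 to 64345738 reads on bovine genes and 17101894 to 35223039 on mouse genes per library. The mouse share of these reads was 30.4% ± 7.57 (SD, n = 5) in the wells that kept IWR-1 and 26.8% ± 8.45 (SD, n = 5) in those that lost it, where it was lower in 5 of 5 lines. Line 4 stood apart with 42.3% and 41.4%, against 21.2% to 33.3% in the other lines. In a whole well, a change in the number of cells of a type and a change in RNA per cell cannot be told apart. The handling of reads matching both species' genomes is not stated in the labels or notes.

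The stem cell label was checked against markers in the bovine table. POU5F1, SOX2, LIN28A and SALL4 ranged from 12623 to 62019 normalised reads over the wells, NANOG from 1199 to 2520.4, and DPPA4 was at 0 to 7.35. The summed level of these 6 markers was lowest in line 4 with IWR-1, at 60122 against 72798 to 134118 in the other lines. The summed level of 12 fibroblast and mesenchyme markers was highest in line 4 whatever the medium. With IWR-1 that sum was 53556 in line 4 and 5741 to 25938 in the others, and without IWR-1 it was 77521 and 9263 to 49957. Its largest terms in line 4 with IWR-1 were TAGLN at 20048 and ACTA2 at 9709. In the wells with IWR-1, TWIST2 (148 against 83.0 to 254) and LUM (2251 against 436 to 2522) were not highest in line 4, while the others of the list were. Without IWR-1 all 12 were highest in line 4. Of the 12, only POSTN was at 0 in any well; this matrix protein of mesenchyme stood at 4097 in line 4 against 0 to 14.6 in the other lines with IWR-1. Of the hypoblast and parietal endoderm markers, GATA4 and SOX17 reached at most 2.02 and 1.97. GATA6 was at 10.1 to 33.4 and FOXA2 at 3.89 to 74.9, while LAMA1 was at 1708 to 6561 and SPARC at 21646 to 44751. Of this list only LAMA1 was highest in line 4 in both media. Of the skeletal muscle markers, MYOD1 and MYOG reached at most 3.94 and 2.31, and DES was at 36.8 to 534. Markers of the feeders could not be checked, because the mouse identifiers other than those of the 18 collagens were not paired with names here.

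The mouse feeders changed part of their collagen set 1 day after IWR-1 was withdrawn. Of 18 mouse collagens, 5 rose and 2 fell in the limma fit with the line as a block. Those that rose were Col11a1, Col8a1, Col12a1, Col14a1 and Col15a1, and those that fell were Col2a1 and Col5a3. Among all 15871 mouse genes tested, 2.14% rose and 2.05% fell at the same threshold, an adjusted p under 0.05. The major fibroblast chains of types I, III and VI did not pass it in this fit. Without the line as a block, 0 of 18 passed, and of all mouse genes tested also 0. The ranges of the media overlapped for all 18, so the calls rest on differences within lines.

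Col11a1, a minor fibrillar chain that takes part in starting fibrils and limiting their width, had the largest rise of the set. With IWR-1 it stood at 1348, 2905, 3405, 610.2 and 538 normalised reads in lines 1, 2, 4, 8 and 11. Without IWR-1 the same lines gave 2329.5, 5504, 5918, 1098 and 1104. Every line was higher without IWR-1, by 0.79 to 1.04 on the log2 scale, and lines 2 and 4 were the highest in both media (log2 change 0.88 ± 0.06 SE, adjusted p = 6.88e-05). Here and below a log2 change is the value without minus with IWR-1 on log2(value + 1).

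Col12a1 and Col14a1 encode the homotrimeric types XII and XIV, which bind to the surface of type I fibrils. Col12a1 read 3299, 9339.8, 14478, 8407 and 7318 in lines 1, 2, 4, 8 and 11 with IWR-1. It read 5951, 18422, 25737, 9376 and 9817 without. The rise was 0.65 ± 0.11 SE and held in 5 of 5 lines, but was small in line 8 (adjusted p = 0.00499). Col14a1 gave 740.2, 448, 763, 749 and 137 with IWR-1. Its values without IWR-1 were 1069, 837, 1184, 787 and 211. Line 11 was lowest in both media, and the rise was again smallest in line 8 (log2 change 0.55 ± 0.10 SE, adjusted p = 0.0123).

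Col8a1 is a chain of the short-chain type VIII, which forms hexagonal networks and is known from vessel walls and from the membrane under the corneal endothelium. In lines 1, 2, 4, 8 and 11 it stood at 6410.1, 11561, 16251, 5494 and 8217 with IWR-1. It stood at 8540.3, 18305, 23226, 8204 and 12449.6 without. All 5 lines rose by similar amounts, from 0.41 to 0.66 (log2 change 0.55 ± 0.06 SE, adjusted p = 0.000679). Col15a1, a multiplexin of the basement membrane zone, gave 2946, 2214, 1205, 1115 and 551 with IWR-1. Without it, Col15a1 gave 3745, 3192, 1784, 1208 and 721. Lines 1 and 2 were the highest and line 11 the lowest in both media (log2 change 0.39 ± 0.07 SE, adjusted p = 0.0127).

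The mouse collagens that fell were both fibrillar chains. Col2a1, the main collagen of cartilage, stood at 1029, 1134, 527, 305 and 609.7 in lines 1, 2, 4, 8 and 11 with IWR-1 and at 666, 644, 290.1, 253 and 449.7 without. It was lower in every line, most in lines 2 and 4 and least in line 8 (log2 change -0.60 ± 0.10 SE, adjusted p = 0.00443). Col5a3, the third chain of type V, stood at 9765, 7359, 8205, 12708 and 13791 with IWR-1 and at 7299, 6099.6, 6421, 9866 and 10325 without. The fall was nearly the same in all lines, from -0.42 to -0.27, and the order of the lines was kept, with line 11 highest and line 2 lowest (log2 change -0.37 ± 0.06 SE, adjusted p = 0.00433). The chains of type V differed in sign, since Col5a1 had a log2 change of 0.31 ± 0.09 SE and Col5a2 of 0.16 ± 0.07 SE.

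**Figure D1:**
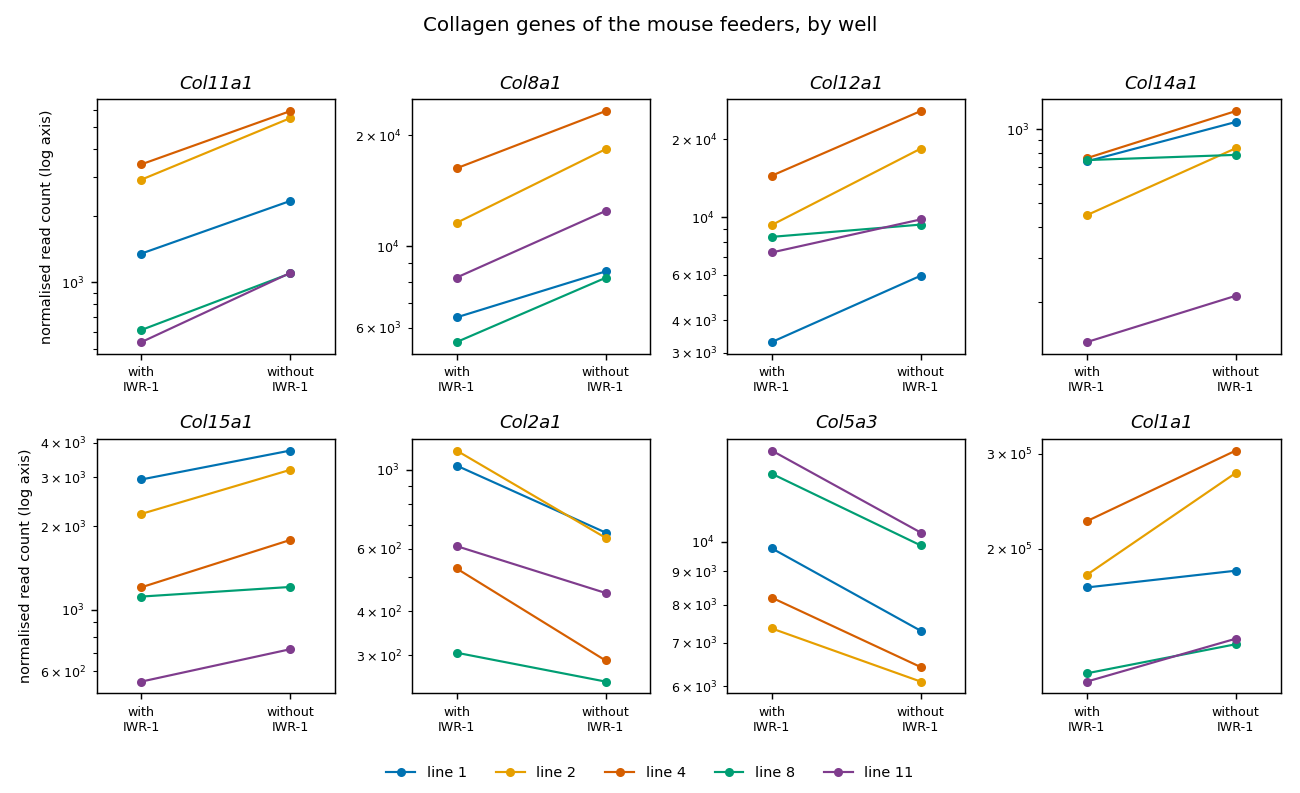
Normalised read counts (log axis) of the 7 mouse collagens that were called and of Col1a1, in wells with and without IWR-1; each line joins the 2 wells of a stem cell line. Col11a1, Col8a1, Col12a1, Col14a1 and Col15a1 go up in all 5 lines and Col2a1 and Col5a3 go down in all 5.

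The calls differed in how far they rested on single lines. Col11a1, Col8a1, Col12a1, Col2a1 and Col5a3 passed in all 5 fits that left out a line. Col14a1 and Col15a1 passed in 2 of those 5 and were lost without line 1, 4 or 11, with adjusted p of 0.0637, 0.0712 and 0.0619 for Col14a1 and of 0.0619, 0.0813 and 0.0652 for Col15a1. The mouse share of the well was also lower without IWR-1 in every line. With it as a further term, limma called 0 of the 15871 mouse genes tested, and 687 of them had an unadjusted p under 0.05. Of the 18 collagens 7 were under it, the same 7 as above. These kept their sign, from -0.85 for Col2a1 to 0.95 for Col12a1. The part of the mouse share in the changes was not tested.

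The type I and type III chains, which make up most of the fibroblast's fibrils, were higher without IWR-1 in 5 of 5 lines but did not pass the threshold with limma. DESeq2 called Col1a1 and Col1a2 as higher and edgeR called neither, so their calls depended on the tool. Col3a1 was called by none of these tools. Col1a1 stood at 169453, 178854, 224916, 117419.9 and 113348 in lines 1, 2, 4, 8 and 11 with IWR-1. It stood at 182027, 276443, 304145, 132960.0 and 136143 without. The media differed most in lines 2 and 4 and least in line 1 (log2 change 0.32 ± 0.11 SE, adjusted p = 0.142). Col1a2, its partner chain, gave 127156, 135618, 167606, 86909 and 86002 with IWR-1 and 137686, 177522, 209644, 101810.3 and 101841 without. The lines kept their order apart from lines 8 and 11, which were nearly equal in both media (log2 change 0.26 ± 0.09 SE, adjusted p = 0.162). Col3a1, the homotrimeric type III chain, gave 143615, 83368, 124737, 117339.5 and 49987 with IWR-1 and 148961, 114043, 149597, 144168 and 52391 without. Line 11 was lowest in both media (log2 change 0.23 ± 0.09 SE, adjusted p = 0.252).

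The other type V chains, which start type I fibrils, lay near the threshold or far from it. Col5a1 gave 57824, 69100.3, 81084, 44318 and 40865 in lines 1, 2, 4, 8 and 11 with IWR-1 and 61946, 100937, 105222, 47743 and 54690.5 without. Its adjusted p was 0.0883 with limma, 0.0489 with edgeR and 0.00562 with DESeq2, so its call depended on the tool. Col5a2 gave 29704, 32808, 36817, 31289 and 23308 with IWR-1 and 31667, 36084, 41482, 35219.6 and 26903 without, higher in 5 of 5 lines by 0.09 to 0.21 (adjusted p = 0.267).

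Type VI and type IV chains of the feeders had small or negative log2 changes, and none passed. Col6a1, a chain of the beaded filaments around cells, stood at 81507, 62238, 87748, 45307 and 39853 in lines 1, 2, 4, 8 and 11 with IWR-1 and at 76230.5, 61852, 75195, 41672 and 30283 without. It was lower in 5 of 5 lines without passing the threshold (log2 change -0.17 ± 0.08 SE, adjusted p = 0.35). Col6a3, the largest chain of type VI, gave 145217, 128546, 150689, 114413 and 55231 with IWR-1 and 151259.9, 173635, 141409.9, 85819 and 53516 without. Its changes ran from -0.41 to 0.43 and thus in both directions (log2 change -0.01 ± 0.12 SE, adjusted p = 0.979). Col6a2 had a log2 change of -0.11.

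Col4a1 and Col4a2, the chains of the ubiquitous basement membrane network, lie head to head in the genome and share a promoter region. Col4a1 gave 27061, 34272, 29320.1, 28138 and 21592 with IWR-1 and 25471, 39279, 30758, 25204 and 22851 without. Col4a2 gave 31153, 34782, 28269, 31338 and 24319 with IWR-1 and 28502, 36255, 29544, 27627 and 24083 without. Both had changes of either sign over the lines and were highest in line 2 in both media, with means of 0.02 ± 0.07 SE and -0.04 ± 0.07 SE. Col18a1, the source of endostatin, stood at 73883, 56387, 53168, 64559 and 66790.1 with IWR-1 and at 64966, 49466, 48297, 56456 and 61283 without. It was lower in all 5 lines by a similar amount, from -0.19 to -0.12, and did not pass (log2 change -0.17 ± 0.07 SE, adjusted p = 0.294).

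Over the 18 mouse collagens the median log2 change was 0.19, beside a median of -0.000414 over all mouse genes tested. Of the 18, 10 were higher and 4 lower without IWR-1 in 5 of 5 lines, where 7.83% of all mouse genes were higher and 7.83% lower in all 5. Reads on the 18 made up 3.96% ± 1.01 (SD, n = 5) of mouse reads with IWR-1, and 4.43% ± 1.25 (SD, n = 5) after its removal, more in 5 of 5 lines. Within these reads the shares of all 6 classes differed between media in the same direction in 5 of 5 lines. The fibrillar chains took 56.8% ± 1.28 (SD, n = 5) and 61.8% ± 2.69 (SD, n = 5) with and without IWR-1, higher without in 5 of 5 lines. Type VI took 25.99% ± 3.33 (SD, n = 5) and 22.4% ± 4.42 (SD, n = 5), lower in 5 of 5, and type IV took 6.99% ± 1.29 (SD, n = 5) and 6.25% ± 1.15 (SD, n = 5), also lower in 5 of 5. The multiplexins took 7.99% ± 2.54 (SD, n = 5) and 6.61% ± 2.46 (SD, n = 5), lower in 5 of 5. The fibril-associated chains took 1.08% ± 0.388 (SD, n = 5) and 1.49% ± 0.521 (SD, n = 5) and the short-chain type VIII 1.12% ± 0.387 (SD, n = 5) and 1.47% ± 0.49 (SD, n = 5), both higher in 5 of 5. The shares are given as a description without a test, and since they sum to the whole, a larger share of a class lowers the others.

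No bovine collagen of the 39 tested passed the threshold for the medium, while 0.886% of all 18506 bovine genes tested rose and 0.0648% fell. At an unadjusted p under 0.05, 14 of the 39 would pass, 11 higher and 3 lower without IWR-1, where 10.1% of all bovine genes would. On the recovered reads edgeR called 0 of them and DESeq2 called 5, which were COL1A1, COL2A1, COL5A1, COL9A2 and COL26A1, all higher without IWR-1. Of all bovine genes edgeR called 1.03%, and DESeq2 called 1.93% as higher and 0.335% as lower. Of the 39, 28 had a positive and 11 a negative log2 change, with a median of 0.12 beside -0.00463 over all bovine genes. In 5 of 5 lines, 7 were higher and 1 was lower, where 6.2% and 4.92% of all bovine genes did so.

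Of the 11 bovine fibrillar chains tested, 4 were higher without IWR-1 in 5 of 5 lines and 0 lower, where 6.2% and 4.92% of all bovine genes were. Limma called none of the 11. COL2A1 (gene ID 407142), the cartilage collagen that is also expressed in the notochord, stood at 29863, 30840.1, 36641, 38988 and 82934 in lines 1, 2, 4, 8 and 11 with IWR-1. It stood at 38204, 51827, 45098, 45567 and 104433 without. Line 11 was far above the others in both media, and all lines were higher without IWR-1 (log2 change 0.39 ± 0.08 SE, adjusted p = 0.056). COL2A1 passed when line 2 was left out, at an adjusted p of 0.0339. COL1A1 (gene ID 282187) gave 6825, 9931, 44002, 11952 and 21943 with IWR-1 and 8196, 15323, 49905, 13412 and 32659.6 without. Line 4 was highest and line 1 lowest in both media, and again all lines were higher without IWR-1 (log2 change 0.36 ± 0.08 SE, adjusted p = 0.0711).

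COL1A2 (gene ID 282188), the partner of COL1A1 in type I collagen, had a negative log2 change. It stood at 134, 348, 28291, 171 and 372 in lines 1, 2, 4, 8 and 11 with IWR-1 and at 89.7, 263, 30918, 131 and 308 without. Line 4 alone was higher without IWR-1, and the mean change did not pass (log2 change -0.30 ± 0.10 SE, adjusted p = 0.299). COL3A1 (gene ID 510833) gave 4.05, 205, 27503, 74.1 and 484 with IWR-1 and 13.8, 202, 29627, 38.1 and 537 without. The span between line 1 and line 4 covered more than 3 orders of magnitude, and the changes had both signs (log2 change 0.17 ± 0.26 SE, adjusted p = 0.924); in line 1 the values rest on 4 and 14 reads.

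COL5A1 (gene ID 100848491) gave 4098, 4906, 10093, 4055 and 7322 with IWR-1 and 4586, 7232, 11991, 4216 and 9981 without. It was higher without IWR-1 in 5 of 5 lines (log2 change 0.29 ± 0.08 SE, adjusted p = 0.125). COL5A2 (gene ID 538590) gave 4472, 5842, 20994, 6178 and 11631 with IWR-1 and 4465, 6718, 20413, 5155 and 11865 without, with changes of both signs (log2 change -0.01 ± 0.07 SE, adjusted p = 0.982). The ratio of COL5A1 to COL5A2 reads was higher without IWR-1 in 5 of 5 lines, at 0.705 ± 0.174 (SD, n = 5) in the wells with IWR-1 and 0.87 ± 0.194 (SD, n = 5) in those that lacked it. COL5A3 was also higher in 5 of 5 lines, at 27.3 to 109.8 outside line 4 with IWR-1 and 32.5 to 152 without, and did not pass (log2 change 0.24 ± 0.14 SE, adjusted p = 0.657). The other fibrillar chains, COL11A1, COL11A2, COL24A1 and COL27A1, had log2 changes of 0.05, 0.11, 0.11 and 0.12.

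The most widespread bovine basement membrane chains differed more between lines than between media. COL4A1 (gene ID 282191) stood at 5236, 6259, 16351, 5384 and 5957 in lines 1, 2, 4, 8 and 11 with IWR-1 and at 5276, 7363, 19253, 5135 and 7538 without. COL4A2 (gene ID 508632) stood at 5406, 6674, 16646, 5529 and 5173 with IWR-1 and at 5156, 8052, 18927, 6170.2 and 6160.5 without. Line 4 held about 3 times the median level of the other lines for both genes, and neither passed for the medium (adjusted p = 0.496 and 0.398). The ratio of COL4A1 to COL4A2 reads stayed between 0.832 and 1.22 over the 10 wells. COL4A5 and COL4A6, the chains of another type IV network, had another order of lines. COL4A5 ranged from 5596 to 18179 with IWR-1 and COL4A6 from 2583 to 8353, and line 11 was highest for both in both media. Their log2 changes were 0.19 ± 0.07 SE and 0.20 ± 0.09 SE. COL4A3 and COL4A4, the chains of the kidney and lung network, stayed at 22.1 to 39.8 and 20.2 to 74.8 with IWR-1.

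Among the multiplexins, COL18A1 (gene ID 508076) stood at 51411, 41935, 16044, 33359 and 30300.1 in lines 1, 2, 4, 8 and 11 with IWR-1 and at 47108, 45499.7, 18549.9, 36442 and 33599 without. Line 1 was highest and line 4 lowest in both media, and line 1 was the only line with a lower value without IWR-1 (log2 change 0.10 ± 0.07 SE, adjusted p = 0.755). COL15A1 ranged from 7609.7 to 26209 with IWR-1 and from 6527 to 24836 without. It was lower without IWR-1 in lines 1, 2, 8 and 11 and slightly higher in line 4 (log2 change -0.20 ± 0.08 SE, adjusted p = 0.363).

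The bovine type VI chains COL6A1, COL6A2 and COL6A3 were highest in line 4 in both media. COL6A1 (gene ID 511422) gave 158, 228, 4098, 286 and 219 in lines 1, 2, 4, 8 and 11 with IWR-1 and 130.1, 199, 3503, 219 and 217 without. It was the only bovine member lower in 5 of 5 lines (log2 change -0.22 ± 0.09 SE, adjusted p = 0.444). COL6A3 (gene ID 530657) gave 76.9, 76.7, 10727, 124 and 226 with IWR-1 and 65.0, 78.2, 11483, 54.4 and 320.1 without. Line 4 lay at 10727 or higher in both media and the other lines at 320.1 or lower, with changes of both signs (log2 change -0.16 ± 0.20 SE, adjusted p = 0.896). COL6A2 had a log2 change of 0.02 ± 0.07 SE.

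COL12A1 (gene ID 359712) had the largest log2 change of the bovine members. It stood at 425, 544, 6416, 441 and 569 in lines 1, 2, 4, 8 and 11 with IWR-1 and at 682, 1225, 7645, 557 and 2820.5 without. Every line was higher without IWR-1, line 11 by 2.31 on the log2 scale and line 4 by 0.25 (log2 change 0.95 ± 0.24 SE, adjusted p = 0.121). When the well's mouse share was added as a term the log2 change was -0.23, so its direction depended on that term, and without line 11 it was 0.61. COL9A2, a chain of the type IX collagen that coats type II fibrils, was higher in 5 of 5 lines, at 824 to 3046 with IWR-1 and 941 to 3512 without (log2 change 0.27 ± 0.07 SE, adjusted p = 0.104). COL26A1 was also higher in 5 of 5 lines, at 6035 to 9228 with IWR-1 and 7964 to 11051 without, and had the smallest adjusted p of all bovine members (log2 change 0.28 ± 0.06 SE, adjusted p = 0.0533).

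The remaining tested members had log2 changes from -0.27 for COL21A1 to 0.57 for COL13A1, a transmembrane collagen. COL13A1 stood at 36.4, 23.1, 303, 72.2 and 85.5 in lines 1, 2, 4, 8 and 11 with IWR-1 and at 29.6, 37.5, 870.2, 90.7 and 131 without, with the highest value in line 4 (log2 change 0.57 ± 0.23 SE, adjusted p = 0.422). Of the members that were not tested, COL28A1 and COL6A5 had at most 1 read in any well. COL17A1, the hemidesmosome collagen of epithelia, stayed at 12.7 or lower. COL19A1 and COL20A1 reached 23.8 and 96.4 in line 4 with IWR-1 and were at most 26.9 in any well of another line.

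Reads on the 44 bovine collagens made up 0.345% ± 0.102 (SD, n = 5) of bovine reads with IWR-1, and 0.387% ± 0.127 (SD, n = 5) after its removal, more in 5 of 5 lines. Of 12 markers of fibroblasts and mesenchyme in the same table, 2 rose and 0 fell, where 0.886% and 0.0648% of all bovine genes did so. These were ACTA2 and TAGLN, genes of contractile fibres, which rose by 0.87 ± 0.09 SE and 0.90 ± 0.08 SE. Of the 10 others, 7 had a positive and 3 a negative log2 change, from -0.24 for DCN to 0.56 for PDGFRB. Of the 12, 5 were higher in 5 of 5 lines, where 6.2% of all bovine genes were. Their summed level was 5741 to 53556 with IWR-1 and 9263 to 77521 without. The keratins KRT8 and KRT18 of the trophectoderm list rose as well, by 0.79 ± 0.09 SE and 0.96 ± 0.08 SE, while CDX2, GATA2, GATA3 and ELF5 of that list did not reach the level for testing in enough libraries. CDX2 was at 86.6 in line 4 without IWR-1 and at 1.19 or lower in all other wells. GATA3, GATA2 and ELF5 reached at most 32.1, 12.6 and 5.83. Of 4 endothelial markers tested TEK rose, by 0.59 ± 0.11 SE, and of 5 stem cell markers tested NANOG rose, by 0.33 ± 0.06 SE. Of the hypoblast, cartilage, skeletal muscle and neural markers tested, limma called none, and PAX6, LAMA1 and SOX9 had the smallest adjusted p, at 0.0837, 0.194 and 0.276. The part of other cell types in the collagen values was not tested.

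**Figure D2:**
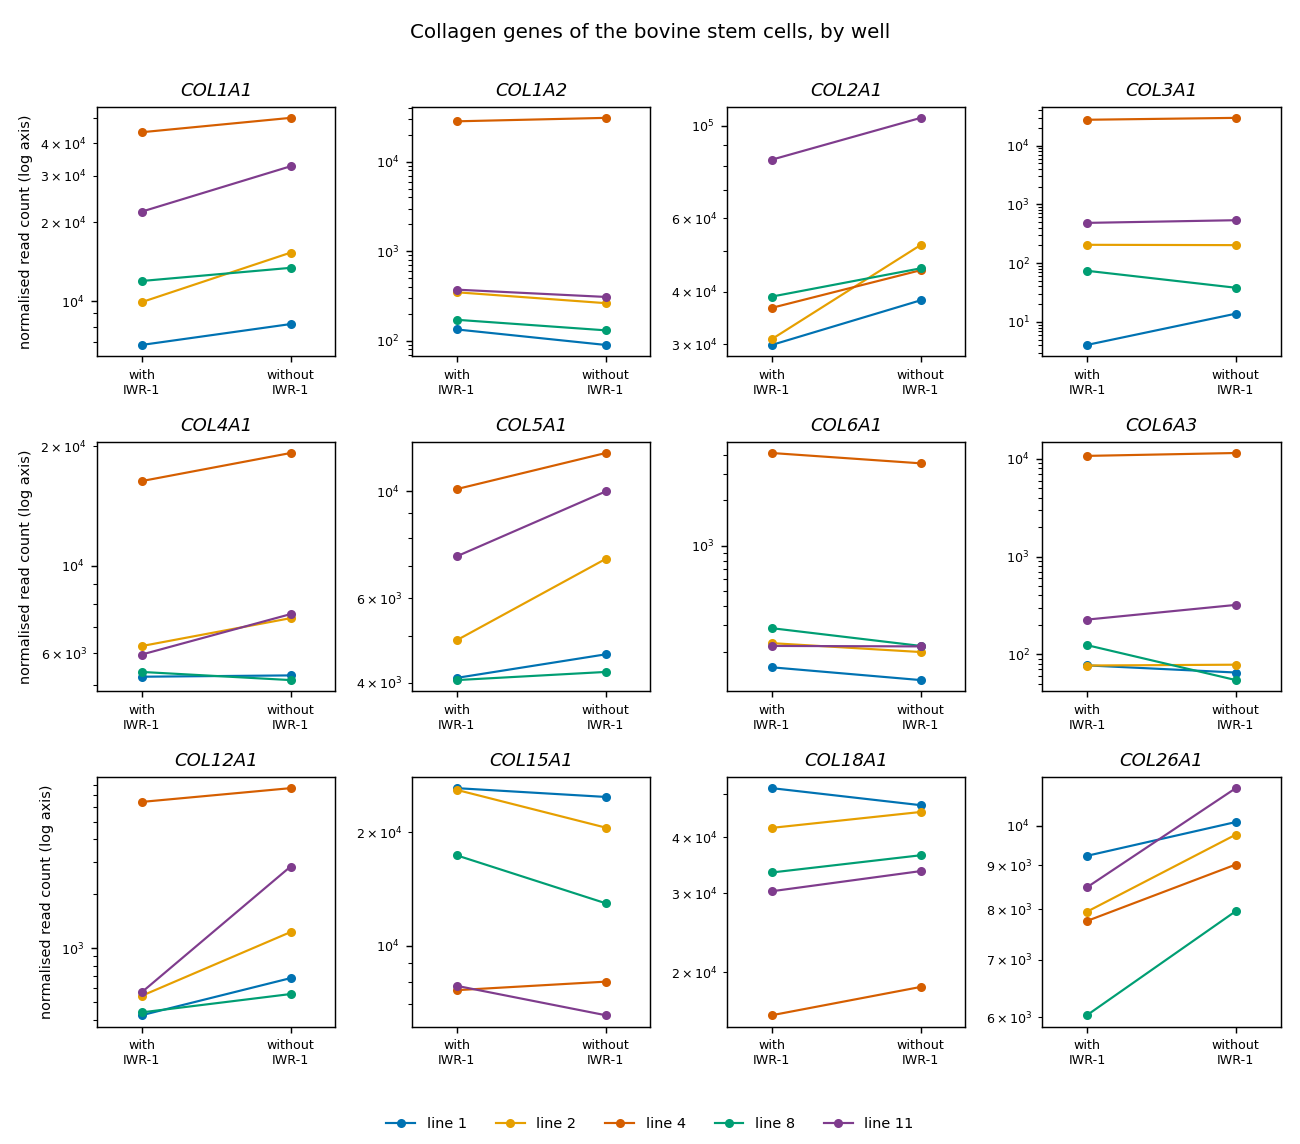
Normalised read counts (log axis, a scale of its own per gene) of 12 bovine collagens in wells with and without IWR-1; each line joins the 2 wells of a stem cell line. COL1A1, COL2A1, COL5A1, COL12A1 and COL26A1 go up in all 5 lines, and line 4 lies apart from the others for COL1A2, COL3A1, COL6A1 and COL6A3.

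The lines differed for nearly all collagens. In an F test of the line terms with adjustment over all genes, 36 of 39 bovine members differed between lines, where 66.5% of all bovine genes did, and 18 of 18 mouse members, where 35.1% of all mouse genes did. COL10A1, COL4A3 and COL23A1 were the bovine members that did not pass. Without line 11, 11 of the 18 mouse members passed, beside 3618 of the 15534 mouse genes tested in that fit. The line took a median of 95.4% of the sum of squares over the bovine members, beside 84.5% over all bovine genes, and 88.3% over the mouse members, beside 69.6% over all mouse genes.

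Line 4 had the highest level in both media for 20 of 39 bovine members, where it was the highest for 19.1% of all bovine genes. The 20 included all chains of types I, III and V, COL4A1, COL4A2, 4 chains of type VI, COL8A1 and COL12A1. For COL1A2 the level in line 4 was 109-fold the median of the other lines with IWR-1 and 157-fold without. The ratios were 197 and 247 for COL3A1, and 107 and 160 for COL6A3. Line 4 also had the highest mouse share and, in both media, the highest sum of the fibroblast and mesenchyme markers. The same held for the hypoblast and parietal endoderm, cartilage and neural sums. With IWR-1 these were 44860 against at most 43745, 3434 against at most 2390, and 21811 against at most 18004. The stem cell and trophectoderm sums were lowest in line 4 in both media, and those of endothelium and skeletal muscle were highest in other lines. The part of the mouse share and of other cell types in these levels was not tested. It was the lowest in both media for COL4A4, COL11A2, COL16A1 and COL18A1, where it was lowest for 18.4% of all bovine genes. Line 11 was highest for COL2A1, COL4A5, COL4A6, COL7A1, COL8A2, COL9A3 and COL14A1, where it was highest for 10% of all bovine genes. Line 1 was lowest for 11 members, among them COL1A1, COL1A2, COL2A1 and COL3A1, where it was lowest for 11% of all bovine genes.

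The feeders under line 4 also had high collagen levels. In the mouse table, wells of line 4 were highest in both media for 9 of 18 members, where they were highest for 6.00% of all mouse genes. These were Col1a1, Col1a2, Col5a1, Col5a2, Col6a2, Col8a1, Col11a1, Col12a1 and Col14a1. Wells of line 11 were lowest for 9 of 18, among them Col3a1 and all measured chains of types IV and VI, where they were lowest for 10.4% of all mouse genes. Whether the feeders of the lines came from different preparations is not stated, so the line and the feeder preparation cannot be told apart.

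The ratio of the type I chains set line 4 apart within the bovine table. Since reads were not divided by length, this ratio is compared only between wells of the same species' table. COL1A1 reads over COL1A2 reads were 51.1, 28.6, 1.56, 69.8 and 59.0 in lines 1, 2, 4, 8 and 11 with IWR-1. Without IWR-1 they were 91.4, 58.3, 1.61, 103 and 106. The bovine lines other than line 4 lay at 28.6 or more. This bovine ratio was higher without IWR-1 in 5 of 5 lines. In the mouse table the ratio was 1.31 to 1.56 over all wells, with no line set apart. The COL6A2 to COL6A1 ratio was also lowest in line 4, at 4.99, 4.8, 1.38, 4.8 and 8.05 in the same order of lines with IWR-1.

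**Figure D3:**
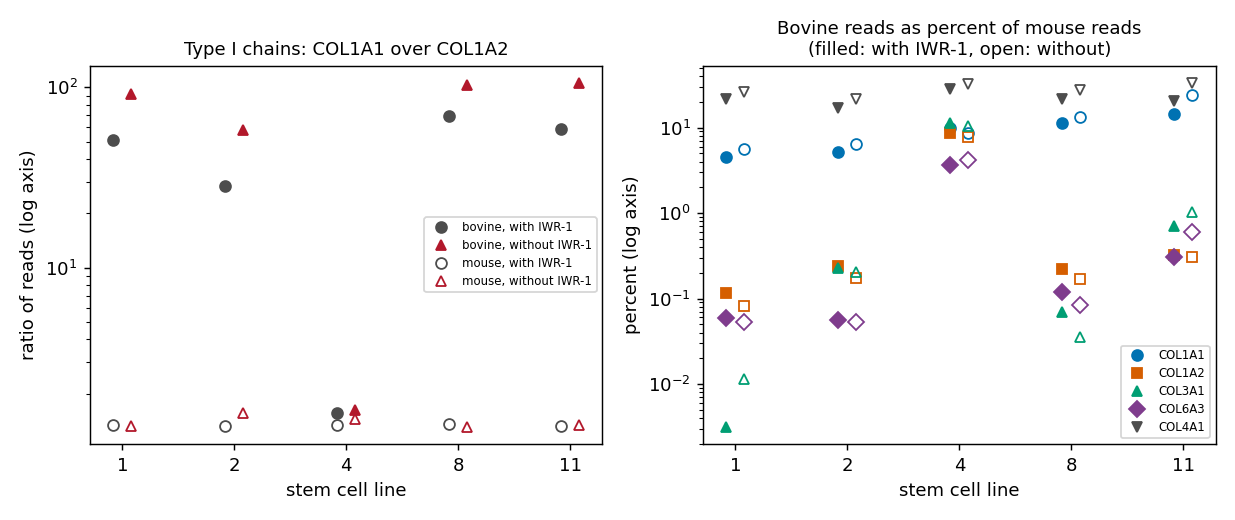
Left, COL1A1 reads over COL1A2 reads (log axis) in each well of the 5 lines, for the bovine and the mouse table; right, bovine reads as a percentage of mouse reads of the same-named collagen (log axis) for 5 collagens. Bovine ratios of the type I chains lie at 28.6 or more except in line 4, and COL1A2, COL3A1 and COL6A3 lie under 1.1% of the mouse reads except in line 4.

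All 18 mouse collagens have a bovine counterpart of the same name, so the tables could be set side by side within wells. Bovine COL1A2 reads were 0.117, 0.24, 8.55, 0.219 and 0.319% of mouse Col1a2 reads in lines 1, 2, 4, 8 and 11 with IWR-1. For COL3A1 the percentages were 0.00314, 0.23, 11.2, 0.0703 and 0.715. Line 4 was again the well with a far higher bovine part, and the lowest percentage, in line 1, rests on 4 bovine reads. COL1A1 had larger percentages than its partner chain in all lines, 4.48, 5.19, 9.91, 11.3 and 14.3 with IWR-1. Over all 10 wells they ranged from 4.48 to 24.2. What part reads of the other species have in them was not tested.

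Type II and type XV had more bovine than mouse reads in every well. Mouse Col2a1 reads were 0.416% to 3.93% of bovine COL2A1 reads. Mouse Col15a1 reads were likewise 5.77% to 42.8% of bovine COL15A1 reads. COL4A1 reads of the bovine table were 17.1% to 33.3% of the mouse reads over the 10 wells. COL18A1 reads of the bovine table were 15.3% to 107% of the mouse reads, lowest in line 4.

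The change after withdrawal was then compared between species within lines. For each of the 18 collagens the bovine change minus the mouse change was tested over the 5 lines by an exact two-sided sign-flip permutation test, whose smallest possible p is 0.063, so no collagen can pass 0.05. For 8 of 18 the difference had the same sign in 5 of 5 lines and thus the smallest p of this exact test. The share of all genes with such a difference was not computed. The change was larger in the bovine table for COL2A1, COL5A3, COL18A1, COL4A2 and COL4A1, and larger in the mouse table for COL11A1, COL15A1 and COL1A2. COL2A1 had the widest gap, with a bovine change of 0.39 and a mouse change of -0.60, a difference of 0.99 ± 0.40 (SD, n = 5). COL5A3 had a change of 0.24 in the bovine and -0.37 in the mouse table, a difference of 0.60 ± 0.18 (SD, n = 5). For these 2 collagens all 5 lines were higher in the bovine table and lower in the mouse table.

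COL11A1 differed by -0.83 ± 0.20 (SD, n = 5), with a bovine change of 0.05 beside the mouse rise of 0.88. COL15A1 differed by -0.59 ± 0.17 (SD, n = 5) and COL1A2 by -0.56 ± 0.23 (SD, n = 5). COL1A1 and COL5A1 had nearly the same mean change in both tables, 0.36 and 0.32 for COL1A1 and 0.29 and 0.31 for COL5A1. Their differences of 0.04 ± 0.21 and -0.02 ± 0.07 (SD, n = 5) had both signs over the lines. Both tables come from the same wells, so they share each well's handling.

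**Figure D4:**
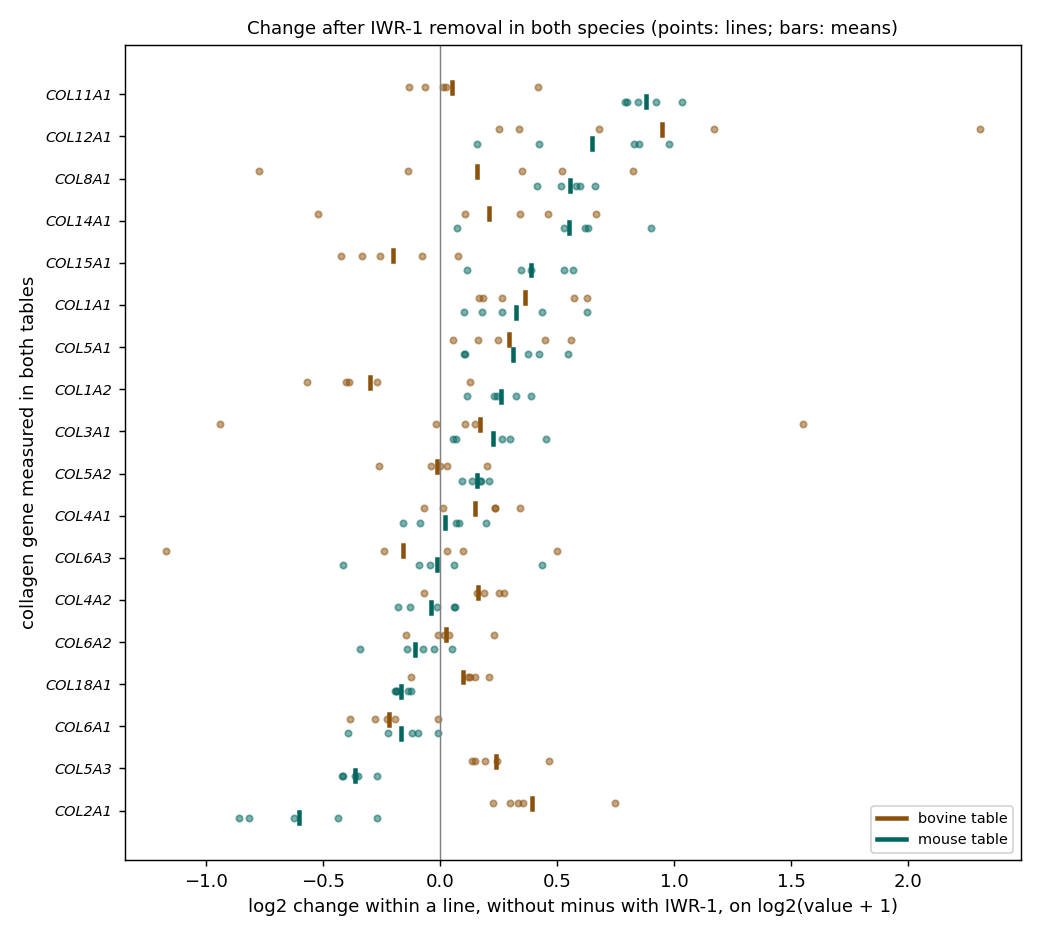
Log2 change within a line, without minus with IWR-1, on log2(value + 1), for the 18 collagens measured in both tables; points are the 5 lines and bars their means. The points of COL2A1 and COL5A3 lie above 0 in the bovine and below 0 in the mouse table, and those of COL11A1 lie between -0.13 and 0.02 in 4 bovine lines and at 0.79 or more in the mouse table.

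Collagen chains need a set of enzymes and chaperones before they leave the cell, are trimmed and cross-linked outside it, and are read by surface receptors. Of 26 listed genes of synthesis, folding and secretion, 25 were tested in the bovine table and 0 were called by limma, with 9 at an unadjusted p under 0.05, 7 of them higher without IWR-1, where 10.1% of all bovine genes were under it. On these genes edgeR called 0, and DESeq2 called P3H2 and P4HA2. The smallest adjusted p was that of P4HA2, a prolyl 4-hydroxylase subunit, at 0.37 ± 0.08 SE (adjusted p = 0.0746). CREB3L1, a transcription factor that promotes collagen production, stood at 4265, 4972, 938, 2574 and 2399 in lines 1, 2, 4, 8 and 11 with IWR-1 and at 3532, 4812, 863, 1937 and 1879 without, lower in 5 of 5 lines, with -0.24 ± 0.07 SE (adjusted p = 0.174), and SERPINH1, the collagen chaperone HSP47, had 0.21 ± 0.06 SE (adjusted p = 0.18).

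Of 13 genes of procollagen processing and cross-linking, 1 rose and 0 fell, where 0.886% and 0.0648% of all bovine genes did so. The gene called by limma and by edgeR was LOXL2, and DESeq2 called LOX as well. LOXL2, a lysyl oxidase that cross-links collagen and elastin, stood at 3613, 3898, 9385, 2979 and 5169 in lines 1, 2, 4, 8 and 11 with IWR-1. It stood at 4543, 5953, 12005, 3388 and 7949 without. It rose by 0.42 ± 0.07 SE in 5 of 5 lines (adjusted p = 0.0253), and the call was lost without line 1, 4 or 11, at adjusted p of 0.104, 0.0718 and 0.169. It was also lost with no filter on low values, at an adjusted p of 0.0783, and without the block. When the well's mouse share was a further term, the log2 change of LOXL2 was 0.25 (adjusted p = 1), and the part of that share was not tested. LOX, the lysyl oxidase that gave the family its name, stood at 454, 433, 647, 336 and 394 with IWR-1 and at 611, 492, 914, 432 and 544 without, higher in 5 of 5 lines (log2 change 0.39 ± 0.08 SE, adjusted p = 0.0587). Line 4 was highest in both media, and LOX passed when line 2 was left out, at an adjusted p of 0.0391. Of 10 collagen receptors, 9 were tested and 0 were called by limma and by edgeR, with 2 at an unadjusted p under 0.05, and DESeq2 called DDR2. DDR2, a receptor tyrosine kinase for fibrillar collagen, stood at 247, 436, 1642, 236 and 415 with IWR-1 and at 363, 769, 1873, 277 and 873 without, higher in 5 of 5 lines (0.57 ± 0.13 SE, adjusted p = 0.0746). ITGA11, a collagen-binding integrin subunit, had 0.43 ± 0.16 SE (adjusted p = 0.363), and MRC2, an uptake receptor for collagen, had 0.10 ± 0.06 SE (adjusted p = 0.658).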

How the data were processed

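Poly(A) RNA of 10 wells was sequenced, per the labels' protocols, and reads were mapped to ARS-UCD1.3 and GRCm39. The tools named by the submitters' processing notes, without their roles, are featureCounts 1.5.0-p3, HISAT2 2.0.5, fastp and StringTie 1.3.3b. Whether strand was kept is not stated. The authors deposited 1 table of normalised signal per species. Each library's values were whole multiples of 1 step, so dividing by it gave whole reads for 100% of positive values (tolerance 0.01 reads). The scaling is not stated, and 2 mouse columns without a sample label were not used. Of 27590 bovine identifiers, 24660 matched RefSeq symbols of ARS-UCD2.0, a build other than the one mapped to, so no coordinates are given. Of 31349 mouse identifiers 0 matched, and names of the 18 mouse members come with their identifiers.

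R 4.3.3 and limma 3.58.1 (trend on intensity, terms for medium and line) were used on log2(value + 1), for genes that reached 10 in 5 or more libraries, with adjustment by Benjamini-Hochberg over all of them. A log2 change on this scale understates that of low genes. Wells with the same number hold the same cell line according to the labels, which pairs them. Their deviations from the media's means correlated at 0.617 to 0.883 (bovine) and 0.488 to 0.725 (mouse). Alternatives were a fit without the line, a pseudocount of 5, no filter, a minimum of 50, edgeR 4.0.16 and DESeq2 1.42.0 on recovered reads, the mouse share as a term, and leaving out each line. The fit was tested on simulated data. Every well is given for called members and for COL1A1, COL1A2, COL3A1, COL4A1, COL4A2, COL5A1, COL5A2, COL6A1, COL6A3, COL12A1 and COL18A1 of each species, and others are named with a level or change. Pathway genes named are those called in a list, or the 3 with the smallest p in a list with none called; LOX and P3H2 are named for their DESeq2 calls. Members, gene lists and markers were chosen with earlier results of these data known.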

Additional observations from a re-analysis of the deposited data

Results flagged for a closer look

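Of 84 groups of 5 values checked among the named collagens (levels in each medium, and changes within lines), 14 had a value far from the other 4. The cut-off flags about 1 in 20 groups of independent, normally distributed values. These groups share wells and their levels were not on a log scale, so that rate does not apply and no excess is claimed. Of the 14, 13 were bovine levels in line 4, high against all other lines. They were COL1A2 (28291 with IWR-1, 30918 without), COL3A1 (27503 and 29627), COL4A1 (16351 and 19253), COL4A2 (16646 and 18927), COL6A1 (4098 and 3503), COL6A3 (10727 and 11483), and COL12A1 with IWR-1 (6416). The other was the change of bovine COL18A1 in line 1, at -0.13, where the other 4 lines lay at 0.12 to 0.21.

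For COL2A1 and COL5A3 all 5 lines were higher without IWR-1 in the bovine table and lower in the mouse table. The bovine change exceeded the mouse change by 0.99 for COL2A1 and by 0.60 for COL5A3 on the log2 scale, each at the smallest p that the exact sign-flip test of 5 lines allows, 0.063. Neither bovine change was called by limma, while both mouse changes were.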

How the results depend on the processing

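The count of bovine collagens called for the medium was 0 in the line-paired limma fit, 5 with DESeq2 and 0 to 1 when a line was left out; every other alternative gave 0. Over all 18506 bovine genes tested, limma likewise called 0 without the block and 0 with the mouse share. The mouse count was 7 and became 0 without the replicate block and 0 with the mouse share as a term, 8 with edgeR, 10 with DESeq2 and 5 to 8 without a line. Among all 15871 mouse genes tested, 0 were called without the block and 0 with the mouse share. For these genes edgeR called 372 as higher and 355 as lower, and DESeq2 441 and 466. Leaving out a line gave 134 to 475 higher and 132 to 456 lower mouse genes. Mouse collagens that differed between lines numbered 11 to 18 without a line. Of the bovine pathway genes, 1 was called, against 0 without the block, 0 with no filter, 0 with the mouse share, 5 with DESeq2 and 0 to 2 without a line. The cause of these differences was not tested, except that a fit without the block sets the change against the spread between lines and a fit without a line has fewer samples.

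With the mouse share as a term the log2 change turned sign for COL11A1 (-0.0028), COL12A1 (-0.23), COL14A1 (-0.16), COL15A1 (0.047), COL21A1 (0.27), COL22A1 (0.62), COL6A2 (-0.072), COL7A1 (-0.15), COL8A1 (-0.14), COL8A2 (-0.22), Col4a1 (-0.017) and Col6a2 (0.013). Of these, none was called in any setting. Leaving out a line turned the sign of 12 members that were not called, with ranges of -0.36 to 0.14 for COL10A1, -0.040 to 0.097 for COL11A1, -0.13 to 0.034 for COL16A1, -0.22 to 0.067 for COL22A1, -0.18 to 0.45 for COL3A1, -0.50 to 0.10 for COL4A3, -0.069 to 0.047 for COL5A2, -0.027 to 0.068 for COL6A2, -0.32 to 0.096 for COL6A3, -0.012 to 0.39 for COL8A1, -0.024 to 0.065 for Col4a1 and -0.12 to 0.089 for Col6a3. No called collagen turned sign under any alternative run.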
